A study of Rattus norvegicus with 9 samples.

Results

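Genes of fructose, polyol and inositol metabolism were followed across the kidney cortex of diabetic rats. The set names 7 genes: the fructose enzymes Khk and Tkfc, the polyol enzymes Akr1b1 and Sord, the inositol-degrading enzyme Miox, and the inositol transporters Slc5a3 and Slc5a11. They were looked up by symbol among the 18420 genes of the deposited table. Of the 7 symbols, 6 were matched and Slc5a3 was not, so no value is given for it. All 9 samples carry the label Medical Bypass and come from rats of the strain ZDF fa/fa, which are homozygous for a defective leptin receptor and become obese and diabetic. The labels give kidney cortex as the tissue and diabetic as the status, and name no drug, age, sex or sampling time. The study's title sets gastric bypass surgery against the medical treatment in diabetic kidney disease, but only the 1 group was analysed here, so every result below is a level in that group or a relation between its 9 replicates. The labels do not say that the replicates came from separate animals, so a p-value reflects the spread among the samples alone, and that spread may be technical.

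Fructose enters metabolism when ketohexokinase (Khk) phosphorylates it to fructose 1-phosphate, and triokinase (Tkfc) phosphorylates the glyceraldehyde released from it. In the polyol pathway aldose reductase (Akr1b1) reduces glucose to sorbitol and sorbitol dehydrogenase (Sord) oxidises sorbitol to fructose, so that glucose can feed the same route, and this pathway is known for its activity in diabetes. Myo-inositol, an osmolyte and a precursor of phosphoinositides, is taken up by the sodium-coupled carriers encoded by Slc5a3 and Slc5a11 and is broken down to glucuronate by myo-inositol oxygenase (Miox), an enzyme found mainly in the proximal tubule. Khk, Tkfc and Sord are likewise genes of the proximal tubule, whereas Akr1b1 is known for high levels in the medulla, where the factor Nfat5 drives it in hypertonic surroundings.

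The start regions are shown for the 4 genes that had an entry in the reference set of promoters. Akr1b1 and Slc5a11 had none, so their letters were not searched. The regions shown come from RefSeq, build GRCr8, which is not the build of the expression table. Each runs from 250 bases before to 50 bases after the gene's start, 5′ to 3′ on the gene's strand. Khk lies at chr6:31175432-31175731 (minus strand), Tkfc at chr1:216677608-216677907 (minus strand), Sord at chr3:129638418-129638717 (plus strand) and Miox at chr7:122284410-122284709 (plus strand). Capitals mark every match, on either strand, to 5 motifs: the Sp1 GC box GGGCGG, the TATA box TATAAA, the HNF1 half-site GTTAAT, the NFAT5 core TGGAAA and the E-box CACGTG.
Khk: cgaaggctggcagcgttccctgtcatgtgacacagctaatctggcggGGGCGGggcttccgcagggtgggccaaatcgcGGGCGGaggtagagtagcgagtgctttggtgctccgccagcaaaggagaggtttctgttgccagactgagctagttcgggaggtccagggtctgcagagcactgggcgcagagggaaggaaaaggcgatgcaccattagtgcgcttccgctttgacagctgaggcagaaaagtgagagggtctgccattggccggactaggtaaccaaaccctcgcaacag
Tkfc: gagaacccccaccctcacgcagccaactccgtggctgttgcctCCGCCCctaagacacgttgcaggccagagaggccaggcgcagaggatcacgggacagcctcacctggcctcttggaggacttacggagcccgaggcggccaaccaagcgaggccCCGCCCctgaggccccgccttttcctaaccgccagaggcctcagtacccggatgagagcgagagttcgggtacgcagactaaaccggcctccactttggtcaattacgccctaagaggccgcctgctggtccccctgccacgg
Sord: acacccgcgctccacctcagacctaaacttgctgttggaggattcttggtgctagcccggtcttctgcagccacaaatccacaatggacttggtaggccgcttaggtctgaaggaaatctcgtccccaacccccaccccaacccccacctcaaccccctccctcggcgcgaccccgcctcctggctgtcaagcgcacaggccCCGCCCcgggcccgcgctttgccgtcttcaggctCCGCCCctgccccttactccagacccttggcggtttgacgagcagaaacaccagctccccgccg
Miox: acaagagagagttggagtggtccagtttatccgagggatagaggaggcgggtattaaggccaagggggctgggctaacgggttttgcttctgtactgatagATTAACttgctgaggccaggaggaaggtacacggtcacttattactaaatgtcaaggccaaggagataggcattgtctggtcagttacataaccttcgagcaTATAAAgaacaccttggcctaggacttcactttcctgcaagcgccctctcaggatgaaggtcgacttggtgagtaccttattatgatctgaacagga
Khk, Tkfc and Sord each held 2 GC boxes, whose first bases lay at -203 and -171 from the start in Khk, at -207 and -93 in Tkfc and at -48 and -14 in Sord. A GC box was in 33.1% of the 33469 rat promoters of the same length. Miox held no GC box and had 1 TATA box at -47 and 1 HNF1 half-site at -149, motifs found in 14.2% and 7.45% of promoters. The NFAT5 core (22.7% of promoters) and the E-box (6.42%) were not among the letters of these 4 windows. No match overlapped another, and a match is a description of the letters only.

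Reads in genes numbered between 10757440 and 43071223 per library, and the lowest read count behind any value of the 6 genes was 228, for Akr1b1, and all 6 passed the filter on low values. Counts are reads and not molecules, so counting error is only part of the error. Of all counted reads, 14.9% to 22.1% had aligned to more than 1 place and were assigned to no gene, and this share was highest in replicate 5. The label was checked against markers of kidney and liver, which do not tell cortex from medulla. The phosphate carrier Slc34a1 of the proximal tubule lay between 52253 and 107425 normalised reads and the liver gene Alb between 4.99 and 21.1. Replicate 1 stood apart in some markers of composition: the 7 matched proximal tubule S1 and S2 markers summed to 149877 normalised reads there and to 190252 to 301512 in the others. Not every proximal tubule marker was low there. Slc34a1 stood at 61112 in replicate 1, above its 54634 in replicate 3 and 52253 in replicate 9. The 6 matched markers of segment S3 summed to 44167 in replicate 1 and to 28959 to 68322 in the others. The 5 matched principal cell markers summed to 26622 in replicate 1 and to 10600 to 16614 in the others. The 2 matched blood genes Hba-a2 and Alas2 summed to 26557 in replicate 5, which was highest for several of the genes described here, and to 2981 to 18736 in the others, and their part in any result was not tested. In bulk RNA, fewer cells of a type and less RNA per cell cannot be told apart. Results that rest on replicate 1 are given with and without it.

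Both fructose enzymes were highest in replicate 5 and high in replicate 8. Levels are normalised read counts: reads divided by the library's size factor, with no correction for gene length, so they compare replicates and not genes. In replicates 1 to 9 Khk stood at 10485, 9286, 9507, 10170, 16294, 6806, 10813, 13146 and 6900 normalised reads, with a mean of 10378 ± 2952 (SD, n = 9). Replicates 5 and 8 were high and replicates 6 and 9 low, and the highest was 2.39 times the lowest. Tkfc stood at 5214, 6682, 4927, 7398, 8856, 5801, 7781, 8245 and 5066 normalised reads, with a mean of 6663 ± 1480 (SD, n = 9). Replicates 5, 8 and 7 were again the 3 highest, replicates 3, 9 and 1 the 3 lowest, and the range was 1.80-fold.

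The polyol enzymes had their extremes in replicate 1, in opposite directions. Akr1b1, aldose reductase, stood at 812.4, 445.1, 453.9, 544.3, 776.0, 550.3, 629.9, 730.4 and 501.1 normalised reads in replicates 1 to 9, with a mean of 604.8 ± 138.9 (SD, n = 9). It was highest in replicate 1 and lowest in replicate 2, a 1.83-fold range. Akr1b1 has close paralogs, and reads that aligned to more than 1 place were counted for no gene, so its level is uncertain. Sord, sorbitol dehydrogenase, stood at 15111, 19321, 23127, 25170, 31113, 23916, 29964, 28746 and 24902 normalised reads, with a mean of 24597 ± 5115 (SD, n = 9). It was lowest in replicate 1 and highest in replicate 5, a 2.06-fold range, whereas Akr1b1 was highest in replicate 1.

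By coefficient of variation Miox had the widest spread of the 6 genes and the inositol carrier Slc5a11 the narrowest. Miox stood at 63431, 63672, 46550, 71930, 103352, 74349, 90588, 100677 and 44699 normalised reads in replicates 1 to 9, with a mean of 73250 ± 21442 (SD, n = 9), a coefficient of variation of 29.3%. Replicates 5 and 8 were the highest and replicates 9 and 3 the lowest, a 2.31-fold range. Slc5a11 stood at 1189, 1657, 1123, 1487, 1520, 1188, 1531, 1681 and 1023 normalised reads, with a mean of 1378 ± 247.1 (SD, n = 9), a coefficient of variation of 17.9%. Its 5 higher replicates, 2, 4, 5, 7 and 8, lay between 1487 and 1681 and its 4 lower ones between 1023 and 1189.

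**Figure D1:**
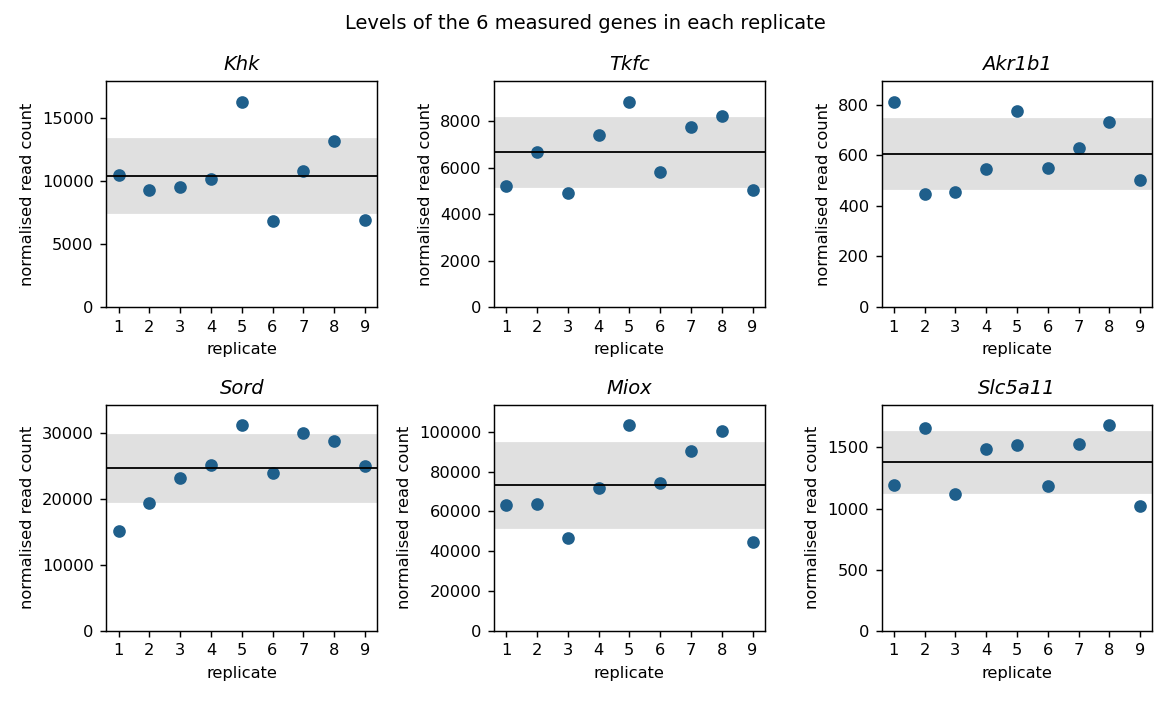
Normalised read counts (y axes, from 0) of Khk, Tkfc, Akr1b1, Sord, Miox and Slc5a11 in replicates 1 to 9 (x axes). Points are single libraries, the line is the mean and the grey band is 1 SD on each side. Replicate 5 is the highest for Khk, Tkfc, Sord and Miox, replicate 1 is the highest for Akr1b1 and the lowest for Sord, and replicate 8 is the highest for Slc5a11.

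None of the 6 genes passed a test for varying more between replicates than the trend for genes of its level. The variance was 2.20 times the trend for Khk and for Miox, 1.51 times for Tkfc, 1.46 times for Akr1b1, 1.37 times for Sord and 1.12 times for Slc5a11. A one-sided F test set each gene's variance against the trend fitted by limma. With Benjamini-Hochberg adjustment over all 13647 genes with a mean of at least 10 normalised reads, the adjusted p of this test was 0.964 to 0.967 for the 6. The same test called 0% of all genes, 0 of 13647, with 548 at an unadjusted p under 0.05. The ratio of Khk stood at percentile 77.9 of all tested genes and that of Slc5a11 at percentile 50.2.

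Among the 6 genes the closest pair was Tkfc and Miox, followed by Tkfc and Slc5a11. Across the 9 replicates, on log2 of the value plus 1, Tkfc and Miox had a Pearson r of 0.904 (exact permutation p = 0.000981) and a Spearman rho of 0.933 (exact permutation p = 0.00075). Without replicates 3 and 5, the 2 farthest from the median of Tkfc, r was 0.836. Tkfc and Slc5a11 had r = 0.883 (exact permutation p = 0.00566) and rho = 0.80 (exact permutation p = 0.0138), and r was 0.905 without the same 2 replicates. For both pairs the exact p stayed under 0.05 when any single replicate was left out, with r from 0.875 to 0.937 and from 0.860 to 0.948. The ratio of Tkfc to Miox spanned 1.45-fold across replicates, against 1.80-fold for Tkfc and 2.31-fold for Miox alone.

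Of the 15 pairs among the 6 genes, 5 had an unadjusted exact p under 0.05, and all 15 had r above 0, though Akr1b1 with Sord and Sord with Slc5a11 were below 0 when libraries were scaled to the same total (-0.228 and -0.0521). The other 3 were Miox with Slc5a11 (r = 0.770, exact permutation p = 0.0200; rho = 0.70, p = 0.0433), Khk with Tkfc (r = 0.743, p = 0.0200; rho = 0.733, p = 0.0311) and Khk with Miox (r = 0.705, p = 0.0310; rho = 0.667, p = 0.0589). Without the 2 replicates farthest from the first gene's median, r was 0.450 for Miox with Slc5a11, 0.674 for Khk with Tkfc and 0.851 for Khk with Miox. The relation of Miox with Slc5a11 thus rested in part on replicates 3 and 9, and as a slope, given below, it lost its call without replicate 3, 4, 5, 7, 8 or 9. The 5 pairs became 3 without replicate 5, without replicate 8 or without replicate 9, and 9 without replicate 1. They also became 3 when every library was scaled to the same total of reads in genes.

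The polyol pair Akr1b1 and Sord, whose enzymes act in sequence, had the r nearest to 0. Their r was 0.0902 over the 9 replicates (exact permutation p = 0.824) and their rho 0.333 (exact permutation p = 0.385). Replicate 1, the highest for Akr1b1 and the lowest for Sord, decided this value. Without it r was 0.9005 (exact permutation p = 0.00198), and without replicates 1 and 5 it was 0.864. Markers of other segments moved with replicate 1, as given above, and their part in this relation was not tested.

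**Figure D2:**
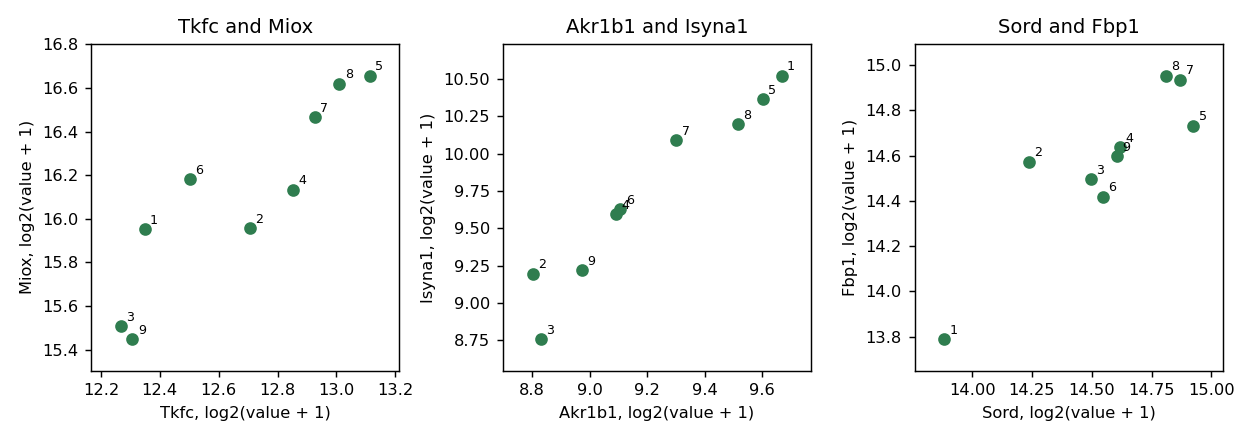
Log2 of the value plus 1 of Tkfc and Miox, Akr1b1 and Isyna1, and Sord and Fbp1, with points for the 9 libraries labelled by replicate number. Pearson r is 0.904, 0.966 and 0.892, and replicate 1 lies at the low end of Sord and Fbp1 and at the high end of Akr1b1 and Isyna1.

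To set these relations against the rest of the transcriptome, the slope of every tested gene was fitted with limma on the log2 level of Khk, Akr1b1, Miox, Tkfc and Sord in turn, per SD of that level, with Benjamini-Hochberg adjustment over all genes and a threshold of 0.05. On Khk, 33.9% of 13646 genes were called, 2134 with a positive and 2488 with a negative slope (15.6% and 18.2%). Scaled to the same total per library the counts were 1153 and 2542, and without replicate 5 only 934 genes were called, without replicate 8 3023. Of the other 5 metabolic genes, 2 were called, both positive, a share near the background. Tkfc had a slope of 0.24 ± 0.079 (SE) log2 units per SD of Khk (adjusted p = 0.0343, limma) and Miox 0.31 ± 0.109 (adjusted p = 0.0435). Both lost their call without replicate 5, 7, 8 or 9, and Miox also without replicate 2 or 4. Both also lost it when scaled to the same total (adjusted p of 0.102 for Tkfc and 0.0872 for Miox), and Miox with no filter on low values (0.0546). Akr1b1, Slc5a11 and Sord had slopes of 0.22, 0.18 and 0.12 with adjusted p of 0.0669, 0.0792 and 0.407. Akr1b1 and Slc5a11 were each called in 1 of the 9 fits that left out a replicate, and Sord in 0. The adjusted p there was 0.0480 for Akr1b1 and 0.0477 for Slc5a11 (limma).

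Among the wider pathways, 3 genes of glucuronate use were called with positive slopes on Khk and 3 osmolyte genes with negative slopes. In the polyol and glucuronate-xylulose list 3 of 8 tested genes were called positive and none negative, with a median slope of 0.22 against 0.02 for all genes. Of all genes 33.9% were called in either direction, 15.6% positive and 18.2% negative, so the called share of this list was near the background. They were the aldehyde reductase Akr1a1 (0.32), the L-xylulose reductase Dcxr (0.38) and the gulonate dehydrogenase Cryl1 (0.24), with adjusted p of 0.0167, 0.0167 and 0.0375. In the hypertonicity and osmolyte list 3 of 6 were called negative and none positive, with a median slope of -0.25. They were the tonicity factor Nfat5 (-0.38, adjusted p = 0.00631), the taurine carrier Slc6a6 (-0.38, adjusted p = 0.00749) and the heat shock protein gene Hspa4l (-0.30, adjusted p = 0.0113). Nfat5 stood at 940.7 normalised reads in replicate 5, where Khk was highest, and at 2346 in replicate 6, where Khk was lowest. Nfat5 itself was highest in replicate 2, at 2806, where Khk stood at 9286. The r of Nfat5 with Khk was -0.832 (exact permutation p = 0.00653; rho -0.883, p = 0.00308; r -0.619 without replicates 5 and 6).

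In the fructose list, with a median slope of 0.10 on Khk, 1 of 9 tested genes was called positive, the glycerate kinase Glyctk (0.24, adjusted p = 0.0189), and 1 negative, the hexokinase Hk2 (-0.39, adjusted p = 0.0253). The gluconeogenic enzyme Fbp1, which averaged 24895 ± 5271 normalised reads (SD, n = 9), had a slope of 0.10 with an adjusted p of 0.484. In the inositol list, with a median slope of 0.08, 1 of 9 was positive, the inositol monophosphatase Impa2 (0.33, adjusted p = 0.0137). Impa2 averaged 2563 ± 859.6 and Cdipt 2003 ± 467.2 normalised reads, and in the osmolyte list the amino acid carrier Slc38a2 averaged 2163 ± 498.6 and Nfat5 1836 ± 545.2 (SD, n = 9). The paralog Impa1 (-0.17, adjusted p = 0.0497) and the inositol phosphate kinase Ippk (-0.22, adjusted p = 0.0293) were negative. Without replicate 5, all of the pathway genes named here as called on Khk but Hspa4l lost their call, and Hspa4l lost its call without replicate 9. Calls were also lost without replicate 9 for Glyctk, without 8 or 9 for Dcxr, without 6, 8 or 9 for Hk2 and Ippk, without 7, 8 or 9 for Cryl1, and without 2, 4, 7, 8 or 9 for Impa1. When libraries were scaled to the same total, Glyctk (adjusted p = 0.0514), Cryl1 (0.116) and Impa1 (0.0535) were not called, nor was Impa1 with no filter on low values (0.0654) or by edgeR (0.0535).

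On Akr1b1, 37.3% of genes were called, 2500 positive and 2591 negative (18.3% and 19%), and 0 of the other 5 metabolic genes. Scaled to the same total the counts were 1292 and 455, and without replicate 5 2868 genes were called. Khk (0.26, adjusted p = 0.0534) and Miox (0.29, adjusted p = 0.0570) lay nearest to the threshold. This absence of calls depended on the libraries used. Khk, Tkfc, Sord and Miox were each called in 1 of the 9 fits that left out a replicate, and Slc5a11 in 0. The lowest adjusted p was 0.0197 for Khk, 0.0118 for Tkfc, 0.00895 for Sord and 0.00227 for Miox (limma). The inositol synthase Isyna1, which makes inositol phosphate from glucose 6-phosphate, had the steepest slope of the listed genes, 0.58 ± 0.064 (SE) log2 units per SD of Akr1b1 (adjusted p = 0.00103, limma). Isyna1 stood at 1468, 585.0, 432.0, 771.0, 1318, 790.2, 1089, 1173 and 594.9 normalised reads in replicates 1 to 9, so replicates 1, 5, 8 and 7 were its highest 4 as they were for Akr1b1. Their r was 0.966 (exact permutation p = 3.58e-05), rho 0.983 (exact permutation p = 4.96e-05), and r was 0.940 without replicates 1 and 5. The call was kept when each replicate was left out in turn, with an adjusted p of at most 0.00726.

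The inositol list as a whole gave 3 positive and 1 negative call of 9 on Akr1b1, with a median slope of 0.02 against 0.01 for all genes, a called share near the 37.3% of all genes. Beside Isyna1, the phosphatidylinositol synthase Cdipt (0.32, adjusted p = 0.00355) and Impa2 (0.32, adjusted p = 0.0188) were positive and Impa1 (-0.21, adjusted p = 0.00899) negative. In the osmolyte list, with a median slope of -0.17, Pnpla6, a lysophospholipase that yields glycerophosphocholine (0.22, adjusted p = 0.0272), was positive. Nfat5 (-0.31, adjusted p = 0.0336) and its known target Slc6a6 (-0.37, adjusted p = 0.00948) were negative. Dcxr (0.37, adjusted p = 0.0202) was the 1 gene of 8 called in the polyol list (median slope 0.08), and 0 of 9 fructose genes were called (median slope 0.08). Isyna1, Cdipt, Impa1 and Slc6a6 kept their calls when any single replicate was left out. With every library scaled to the same total, Isyna1 and Cdipt kept theirs, and Impa1 (adjusted p = 0.136), Slc6a6 (0.127), Impa2 (0.0957), Nfat5 (0.324), Dcxr (0.0923) and Pnpla6 (0.0858) lost theirs. Dcxr and Impa2 lost theirs without replicate 3, 5 or 8, Nfat5 without 2, 5, 8 or 9 and Pnpla6 without 3, 5, 8 or 9.

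On Miox, 29.4% of genes were called, 2025 positive and 1987 negative (14.8% and 14.6%), and 3 of the other 5 metabolic genes were positive. Scaled to the same total the counts were 1243 and 2016. The count was 1948 without replicate 3, 640 without replicate 5, 2619 without replicate 7, 1535 without replicate 8 and 2427 without replicate 9. Tkfc had a slope of 0.29 ± 0.064 (SE) log2 units per SD of Miox (adjusted p = 0.00978, limma), and lost its call only without replicate 5 among the single replicates left out (adjusted p = 0.0546). Slc5a11 (0.20, adjusted p = 0.0381) and Khk (0.28, adjusted p = 0.0427) were called too, each in 3 of the 9 fits that left out a replicate. Slc5a11 lost its call without replicate 3, 4, 5, 7, 8 or 9 and Khk without 2, 4, 5, 7, 8 or 9. Under scaling to the same total, Slc5a11 (adjusted p = 0.104) and Khk (0.0923) were not called, nor was Khk with no filter on low values (0.0542), while Tkfc kept its call in both. Akr1b1 (0.22, adjusted p = 0.0702) and Sord (0.17, adjusted p = 0.191) did not pass. Akr1b1 was called in 1 of the 9 fits that left out a replicate (adjusted p = 0.0115, limma), and Sord in 0.

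Of the polyol and glucuronate-xylulose list, Dcxr had the highest r with Miox. Dcxr acts downstream of Miox on the route from inositol through glucuronate to xylulose, and its slope was 0.47 ± 0.072 (SE) log2 units per SD of Miox (adjusted p = 0.00454, limma). It stood at 7244, 6079, 5631, 6266, 11444, 7186, 11545, 12270 and 4696 normalised reads in replicates 1 to 9, so that replicates 5, 7 and 8 were the 3 highest, as for Miox. Their r was 0.932 (exact permutation p = 0.000182), rho 0.85 (exact permutation p = 0.00607), and r was 0.929 without replicates 3 and 9. The call was kept when each replicate was left out in turn, with an adjusted p of at most 0.0316. Such an r was not particular to this route. Pnpla6 of the osmolyte list also had r = 0.932 with Miox, and 373 of 13646 genes had an r of at least 0.9 with it. Akr1a1, which reduces glucuronate on the same route, had a slope of 0.32 (adjusted p = 0.0176) and mean 31985 ± 9549 normalised reads (SD, n = 9), while the xylulokinase Xylb, at 11785 ± 1413, was not called. In the inositol list Isyna1, Cdipt and Impa2 were positive and Impa1 negative, 4 of 9, with a median slope of 0.06. The median slope was 0.10 for the polyol list, in which 2 of 8 were called, and 0.01 for all genes, of which 29.4% were called. The fructose list had 1 positive call of 9 (Glyctk, 0.25) and the osmolyte list 2 of 6 (Pnpla6, 0.26, and the glycerophosphocholine phosphodiesterase Gdpd5, 0.49), although the median slope of the osmolyte list was -0.24 and that of the fructose list 0.12. Calls were lost without replicate 5 for all of these but Dcxr. They were also lost without 8 for Akr1a1, without 8 or 9 for Glyctk, without 3 for Cdipt and Gdpd5, without 3 or 8 for Isyna1 and Impa1, and without 2, 3, 4, 7 or 8 for Impa2. Impa2 was also not called when scaled to the same total (adjusted p = 0.109) or with no filter on low values (0.0548).

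On Tkfc, 9.99% of genes were called, 584 positive and 779 negative (4.28% and 5.71%), and 2 of the other 5 metabolic genes were positive. Scaled to the same total the counts over all genes were 157 and 921. The 2 called were Miox (0.40 ± 0.076 SE, adjusted p = 0.0275, limma) and Slc5a11 (0.23 ± 0.061 SE, adjusted p = 0.0415). Miox lost its call without replicate 3, 5, 7, 8 or 9 and Slc5a11 without 3, 4, 5, 6, 7, 8 or 9. Leaving out replicate 3, 5, 7 or 8 gave 0 called genes, replicate 9 36, replicate 6 156, replicate 2 2221 and replicate 1 5651. Akr1a1, Dcxr and Glyctk, with adjusted p between 0.0317 and 0.0394, were the pathway genes called, and each lost its call without replicate 3, 5, 6, 7, 8 or 9. With libraries at the same total, Akr1a1 and Dcxr (adjusted p of 0.0553 for each), Glyctk (0.0649) and Slc5a11 (0.0752) were not called, and Miox was. With no filter on low values, which left 522 called genes, Dcxr (0.0521), Glyctk (0.0511) and Slc5a11 (0.0548) were not called.

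On Sord, 0% of genes were called by limma, with 1450 at an unadjusted p under 0.05. DESeq2 called 224 and edgeR 0. Without replicate 1 limma called 3286 genes, and without replicate 5 it called 1. Fbp1 stood at 14146, 24375, 23085, 25482, 27212, 21878, 31349, 31728 and 24803 normalised reads in replicates 1 to 9. Replicate 1 was the lowest for Fbp1 as for Sord, and replicates 5, 7 and 8 were the 3 highest for both. The r of Fbp1 with Sord was 0.892 (exact permutation p = 0.00238; rho 0.867, p = 0.00451), with an adjusted p of 0.263 (limma) that did not pass. The r was 0.711 without replicate 1 and 0.835 without replicates 1 and 2. These single correlations are among 192 between the 6 genes and 32 pathway genes, and their exact p-values are unadjusted.

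**Figure D3:**
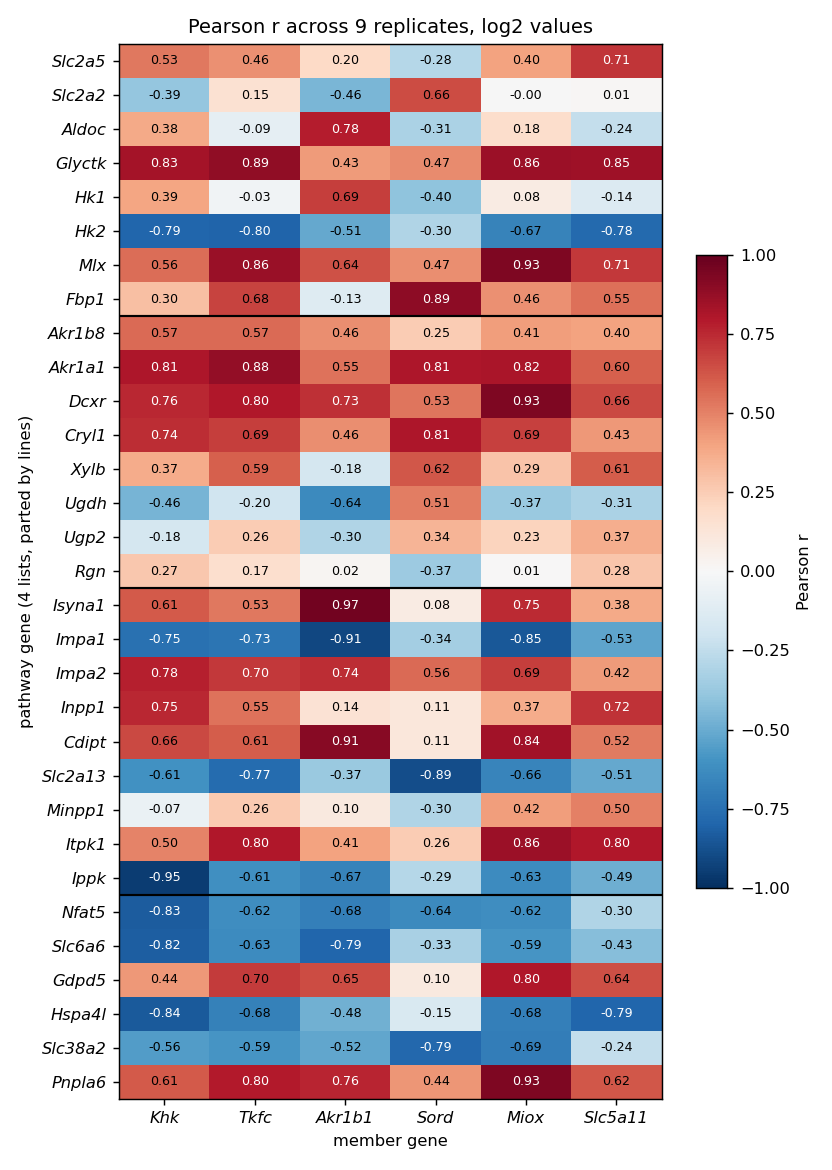
Pearson r across the 9 replicates, on log2 of the value plus 1, for the 186 combinations of the 6 measured metabolic genes (columns) with 31 of the tested pathway genes (rows, in 4 lists parted by lines: fructose, polyol and glucuronate-xylulose, inositol, and osmolytes). Red is above 0 and blue below 0. The Akr1b1 column holds 0.97 for Isyna1 and the Sord column 0.89 for Fbp1. Hk2, Impa1, Ippk, Nfat5, Slc6a6, Hspa4l and Slc38a2 are among the genes below 0 in all 6 columns.

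Over all 9 replicates, limma called 2 of the 6 genes on the share of reads that aligned to more than 1 place, a property of the library. That is near the background, as 35% of all genes were called on it. That share was 19.2%, 14.9%, 15.5%, 17.2%, 22.1%, 15.2%, 16.8%, 18.4% and 15.8% in replicates 1 to 9. Its slope was positive for Akr1b1 (0.28 ± 0.068 SE log2 units per SD of the share, adjusted p = 0.0084, limma) and for Khk (0.33 ± 0.082 SE, adjusted p = 0.00899). Of all genes 35% were called, 2225 positive and 2549 negative (16.3% and 18.7%), or 1489 and 2814 when scaled to the same total, and 1740 in all without replicate 5. Akr1b1 had r = 0.864 with the share (exact permutation p = 0.00113; rho 0.85, p = 0.00607; 0.853 without the 2 farthest replicates) and Khk r = 0.836 (exact permutation p = 0.00361; rho 0.833, p = 0.00827; 0.769 without the 2 farthest). Khk lost its call without replicate 5 and Akr1b1 kept its call without any 1 replicate. Miox, Tkfc, Slc5a11 and Sord were not called, with adjusted p of 0.0957, 0.156, 0.487 and 0.618. Over the 9 replicates their r with the share was 0.605, 0.536, 0.296 and 0.223, in the same order. Without replicate 1, r was 0.688 for Miox (exact permutation p = 0.0498) and 0.748 for Tkfc (exact permutation p = 0.0189). It was then 0.421 for Slc5a11 (exact permutation p = 0.313) and 0.773 for Sord (exact permutation p = 0.0218). These exact p-values are unadjusted.

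With the share as a covariate the slopes on Khk, on Akr1b1 and on Tkfc called 0 genes by limma, with 1188, 1383 and 2425 at an unadjusted p under 0.05, and those on Miox called 215. Tkfc then had a slope of 0.30 on Miox and an adjusted p of 0.0683. Of the pathway genes, Isyna1, Cdipt, Impa2 and Akr1a1 had positive and Nfat5, Slc6a6 and Impa1 negative slopes on the share, so the same library measure moved with these genes as with Khk and Akr1b1. By list, 3 of 9 inositol genes were called positive and 1 negative, 1 of 8 polyol genes positive and 2 of 6 osmolyte genes negative. In the fructose list 0 of 9 were called, against 35% of all genes. Isyna1 and Slc6a6 kept those calls without any 1 replicate, Impa1, Impa2 and Nfat5 lost them without replicate 5, Cdipt without 1, 3, 5, 8 or 9 and Akr1a1 without 2, 3, 4, 5, 6, 8 or 9. Its part in the relations among them was not tested beyond this covariate. Depth moved with other members: r with the log2 number of reads in genes was 0.816 for Miox (exact permutation p = 0.00727; rho 0.783, p = 0.0172; 0.676 without the 2 farthest), 0.796 for Tkfc (exact permutation p = 0.00978; rho 0.817, p = 0.0108; 0.698 without the 2 farthest) and 0.732 for Slc5a11 (exact permutation p = 0.0243; rho 0.667, p = 0.0589; 0.625 without the 2 farthest). Its part in the relations of these 3 genes was not tested. These are 3 of 24 relations of the 6 genes with 4 measures of the library or its composition, and their p-values are unadjusted.

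**Figure D4:**
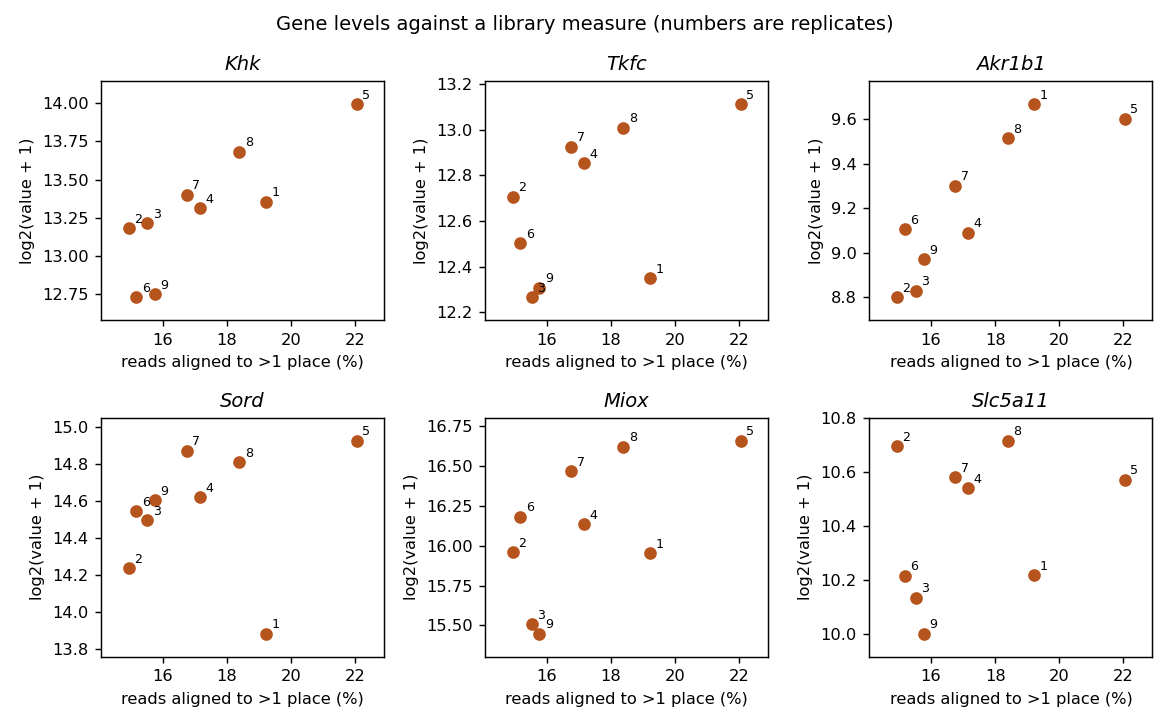
Log2 of the value plus 1 of the 6 genes (y axes) against the share of counted reads aligned to more than 1 place in percent (x axes), with points for the 9 libraries labelled by replicate number. Khk and Akr1b1 climb with the share (r = 0.836 and 0.864), and replicate 1, at 19.2%, lies low for Sord and high for Akr1b1.

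With limma, none of the 6 genes passed the adjustment against scores of the 2 cell types measured beside them, the mean z-scores of proximal tubule S1 and S2 markers and of principal cell markers, while DESeq2 called Sord on the first and Akr1b1 on the second. The proximal tubule score called 0% of 13640 genes with limma (925 at an unadjusted p under 0.05, 0 by edgeR and 135 by DESeq2). Sord had a slope of 0.29 ± 0.068 (SE) per SD of that score (adjusted p = 0.280, limma; adjusted p = 0.0135, DESeq2). Its r with the score was 0.8796 (exact permutation p = 0.00341; rho 0.817, p = 0.0108; 0.663 without the 2 farthest replicates), and 0.673 without replicate 1 (exact permutation p = 0.0649). With the share of multiply aligned reads as a covariate Sord was called by limma too (adjusted p = 0.0394). Tkfc had r = 0.702 with this score (exact permutation p = 0.0146; rho 0.85, p = 0.00607; 0.804 without the 2 farthest replicates; adjusted p = 0.578, limma). Replicate 1 decided the values of other genes: the r of Miox was 0.561 (exact permutation p = 0.112; rho 0.883, p = 0.00308) and 0.886 without replicate 1 (exact permutation p = 0.0031). The r of Akr1b1 was -0.0871 (exact permutation p = 0.853) and 0.833 without replicate 1 (exact permutation p = 0.00987). Khk had r = 0.217 with this score (exact permutation p = 0.566; rho 0.483, p = 0.194). Slc5a11 had r = 0.561 (exact permutation p = 0.0965; rho 0.667, p = 0.0589).

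The principal cell score called 0% of 13642 genes with limma (2854 at an unadjusted p under 0.05, 0 by edgeR and 720 by DESeq2), and 1 without replicate 1. Akr1b1, which is not confined to the proximal tubule, had a slope of 0.27 ± 0.077 (SE) on it (adjusted p = 0.151, limma; adjusted p = 0.0319, DESeq2). Its r was 0.822 (exact permutation p = 0.00067; rho 0.883, p = 0.00308; 0.925 without the 2 farthest replicates), and 0.857 without replicate 1 (exact permutation p = 0.00883). With this score Sord had r = -0.408 (exact permutation p = 0.263) and 0.776 without replicate 1 (exact permutation p = 0.0257), and Miox 0.279 (exact permutation p = 0.491) and 0.774 (exact permutation p = 0.030). Without replicate 1, then, Sord, Miox and Akr1b1 all had r above 0.6 with both scores, and Khk, Tkfc and Slc5a11 did not. With the proximal tubule and principal cell scores, r was then 0.525 and 0.613 for Khk and 0.803 and 0.586 for Tkfc. For Slc5a11 it was 0.667 and 0.312. The exact p-values given for both scores are unadjusted.

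Some markers of tubule and other cell types had an r with these genes as far from 0 as the closest pair among the genes. Of the 7 tested S1 and S2 markers, the phosphate carrier Slc34a1 had the highest r with Miox (0.974) and with Tkfc (0.949). Slc5a12 had the lowest, -0.360 with Miox and -0.130 with Tkfc, and was the 1 marker below 0 with each. With Khk and with Akr1b1, 3 of the 7 were below 0 (down to -0.566 and -0.829, for Slc5a12), with Slc5a11 1 and with Sord 0. With libraries scaled to the same total, 3 of the 7 were below 0 with Miox and 1 with Tkfc. The counts were then 3 with Khk, 5 with Akr1b1, 2 with Slc5a11 and 0 with Sord. Of the 6 tested S3 markers, 3 were below 0 with Khk, Tkfc and Slc5a11, 4 with Miox, and 5 with Akr1b1 and Sord. Of the 5 podocyte markers, which summed to between 9663 and 13569 normalised reads, 4 had r below 0 with Tkfc, down to -0.964 for Podxl. As many were below 0 with Khk, Sord, Miox and Slc5a11, and 3 with Akr1b1. All 5 tested endothelial markers, with sums between 6813 and 11011, had r below 0 with Khk (-0.943 for Flt1 to -0.130 for Emcn), with Tkfc (-0.921 for Cdh5 to -0.437) and with Miox (-0.952 for Tek to -0.298). All 5 were below 0 with Sord and Slc5a11 too, and 4 of the 5 with Akr1b1. All 6 macrophage markers, with sums between 5946 and 9145, had r above 0 with Akr1b1, from 0.524 for C1qa to 0.970 for C1qc. All 6 were above 0 with Khk, Tkfc, Miox and Slc5a11 too, and 4 of the 6 with Sord. When libraries were scaled to the same total, the podocyte counts below 0 became 5 with Slc5a11 and 1 with Akr1b1. The macrophage counts below 0 became 1 with Slc5a11 and 3 with Sord. The other podocyte, endothelial and macrophage counts held. These correlations are descriptions, over 9 libraries that share their depth and scaling, with no test. The part of cell composition in the relations among the 6 genes was not tested.

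The genes whose pattern over the 9 replicates was most like each member are given as a description, since they were picked from 13646 for that likeness. Rows with no standard gene symbol and the other members were left out of this choice. They were Rpl3, Nudt18 and Dnttip1 for Khk (r = 0.986, 0.983 and 0.978), Gpn1, Orc5 and Ino80c for Tkfc (0.983, 0.964 and 0.959), and Cst3, Serinc2 and Trim47 for Akr1b1 (0.990, 0.983 and 0.981). They were Oma1, L3hypdh and Aars for Sord (0.970, 0.965 and 0.956), Ipo13, Plin5 and Clptm1 for Miox (0.986, 0.983 and 0.979), and Dpp3, Slc35b4 and Man2b1 for Slc5a11 (0.925, 0.924 and 0.920). An r of at least 0.9 was reached by 248 genes with Khk, 107 with Tkfc, 401 with Akr1b1, 55 with Sord, 373 with Miox and 12 with Slc5a11. Tkfc and Miox, at 0.904, were thus among many genes at that likeness to Miox, 2.73% of those tested, and within 0.784% of those tested for Tkfc.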

How the data were processed

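Per the labels' protocols, frozen cortex gave column-purified RNA for a stranded mRNA library kit. HTSeq 0.6.1p1, DESeq2, MultiQC 0.9, FastQC 0.11.2 and the build Rnor_5.0 are listed in the submitters' processing notes. No source used here gives the aligner or the strand setting of the counting. The authors deposited a signal, gene read counts divided by a size factor. Whole reads were recovered from them: 99.988% to 99.994% of nonzero values came within 0.1 of an integer number of reads. Of 18423 rows, 3 name no gene and were left out of tests. The row of reads aligned to more than 1 place made 14.9% to 22.1% of counted reads and the row of reads outside genes 22.0% to 31.3%.

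All 9 samples formed the 1 labelled group. Slopes and variances were fitted to log2(value + 1) with limma 3.58.1 in R 4.3.3 (robust trend) for 13647 genes with a mean of at least 10, adjusted by Benjamini-Hochberg over all of them, threshold 0.05. Exact permutation tests were two-sided over all pairings of the 9 samples. edgeR 4.0.16 and DESeq2 1.42.0 were run on recovered reads as alternatives, as were other pseudocounts (0.5 and 5), filters on low values, scalings, left-out replicates, replicates 4 to 9 alone, and, as a covariate, the share of multiply aligned reads. The alternatives for the slopes on Tkfc and on Sord were added after seeing the data. The fits were tested on simulated data.

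The members and gene lists were chosen with earlier results of these data known. Genes were named by a rule: the members, the 3 genes most like each in pattern, and of 4 pathway lists the 2 with the highest means and those past a test. The 3 genes were chosen among those with a standard symbol that are not members. In those lists 34 of 39 genes were matched and 32 tested. Cell type scores used the matched markers, 7 of 8 for the proximal tubule S1 and S2 and 5 of 7 for the principal cell. Single values outside the rule are single cell type markers and the sums of marker lists, which were chosen after their values were seen. The values of 1 gene under the rule are not reported here.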

Additional observations from a re-analysis of the deposited data

How the results depend on the processing

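No paired analysis was possible because the samples form 1 group, so replicate numbers pair nothing. Of the slopes of single genes over all alternatives, 1257 kept their direction and side of the threshold, 203 lost a call, 32 gained one and 32 changed sign. Of the pair correlations 191 kept theirs, 10 lost it, 19 gained it and 5 changed sign. The cause of the changes was not tested.

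Pseudocounts, a mean of at least 100 and TMM scaling left every count of called genes within 1.5 times. No filter on low values gave 522 called genes on Tkfc. Scaled to the same total per library, the slopes on Akr1b1 called 1747 genes and those on the proximal tubule score 1, and 3 member pairs passed. Under this scaling the sign changed for Sord on Akr1b1 (-0.05542), Akr1b1 on Sord (-0.07252), Slc5a11 on Sord (-0.01213) and Khk on the proximal tubule score (-0.02411), and for r of Akr1b1 with Sord (-0.228) and of Sord with Slc5a11 (-0.0521).

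Replicates 4 to 9 alone gave 5708 called genes on Tkfc, 4737 on Sord and 3135 on the share of multiply aligned reads, and 12 pairs. The slope of Akr1b1 on the proximal tubule score was then 0.1216, and those on the principal cell score were 0.1868 for Tkfc, 0.1166 for Sord and 0.1323 for Slc5a11, all of changed sign. DESeq2 called 3001 genes on Tkfc, 224 on Sord, 135 on the proximal tubule score and 720 on the principal cell score.

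With that share as a covariate, 0 genes were called on Khk, 0 on Akr1b1, 0 on Tkfc, 215 on Miox, 4 on Sord and 181 on the proximal tubule score, by limma, while 1188 on Khk, 1383 on Akr1b1 and 2425 on Tkfc had an unadjusted p under 0.05. The slopes that changed sign were Akr1b1 on Khk (-0.06829), on Tkfc (-0.01044) and on Sord (-0.03522), those on Akr1b1 of Khk (-0.09951), Tkfc (-0.02905), Sord (-0.1327), Slc5a11 (-0.006649), Impa2 (-0.009486) and Nfat5 (0.09291), and those on the principal cell score of Khk (-0.09269) and Miox (-0.06201). The share had r of 0.836 with Khk and 0.864 with Akr1b1.

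Leaving out each replicate in turn gave 934 to 5223 called genes on Khk, 2868 to 6004 on Akr1b1, 640 to 5464 on Miox, 0 to 5651 on Tkfc, 0 to 3286 on Sord, 0 to 1 on the principal cell score and 1740 to 4978 on the share, and 3 to 9 pairs. Slopes that changed sign in some of these ran from -0.03917 to 0.2032 for Sord on Akr1b1, -0.03847 to 0.2683 for Akr1b1 on Sord, -0.079 to 0.218 for Akr1b1 on the proximal tubule score and -0.05953 to 0.1745 for Sord on the share. On the principal cell score they ran from -0.07306 to 0.07602 for Slc5a11, -0.1914 to 0.1681 for Sord and -0.05977 to 0.1726 for Tkfc. The r of Akr1b1 with Sord ran from -0.123 to 0.9005. Among the 6 genes depth limits Akr1b1 most, with 228 to 1343 reads per library, and among called pathway genes Gdpd5 had 16 to 197, Hk2 39 to 141 and Ippk 81 to 293.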
